A study of Mus musculus with 7 samples.

Results

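H3K27me3, the trimethylated lysine 27 of histone H3, was examined around 6 genes of the cell cycle and of growth in mouse liver: Cdkn2a, Cdkn2b, Cdkn1a, Gadd45b, Ccnd1 and Myc. The members were the H3K27me3 islands, stretches that the peak caller SICER found enriched in reads, with at least 1 base within 50 kb of 5 given points of the mm9 genome, 1 point serving both Cdkn2a and Cdkn2b. Of the 122262 islands in the lists of 7 livers, 54 met this rule, and each liver contributed 7 to 9 of them. Livers came from male CD-1 mice, an outbred stock from Charles River, 7 weeks old and wild type. The TCPOBOP group held 4 mice injected with 3 mg/kg TCPOBOP and the vehicle group 3 mice injected with 1% DMSO in corn oil. All livers were collected 27 h later, and chromatin of each was immunoprecipitated separately.

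Polycomb repressive complex 2 places H3K27me3 on the chromatin of silent genes, where it often spreads over wide domains. TCPOBOP is a ligand of the mouse constitutive androstane receptor (CAR), and besides inducing drug-metabolising enzymes it drives hepatocytes into the cell cycle and enlarges the liver. The genes studied act on both sides of that response. Cdkn2a, Cdkn2b and Cdkn1a encode inhibitors of cyclin-dependent kinases, Gadd45b encodes a stress-induced protein that CAR ligands induce in mouse liver, and Ccnd1 (cyclin D1) and Myc drive entry into the cycle. The comparison asked whether islands around these genes differed between livers of TCPOBOP-treated and vehicle-treated mice.

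The lists held 16481 to 20550 islands in TCPOBOP livers and 14167 to 17852 in vehicle livers, and islands covered 537 to 605 Mb and 537 to 587 Mb of the genome. The lists give no read numbers, so the depth is unknown, and the absence of an island means only that none was called. Each list was called on its own. In whole liver, fewer cells with the mark and less of the mark per cell cannot be told apart. The length of a 100 kb window under islands is called its cover below, and positions are given relative to the point, negative toward lower coordinates.

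The 5 windows fell into 3 patterns, each seen in both groups. A dense domain lay over the Cdkn2a and Cdkn2b point in all 7 livers, no island lay within 50 kb of the Myc point in any liver, and the Ccnd1, Gadd45b and Cdkn1a windows had islands in all 7 livers whose number and extent differed between livers. At Cdkn1a the count depended on weak or short cover: with at least 10 kb of the window under islands required, without the lowest 25% of islands by score, or with lists trimmed to equal total length, 3 of 4 TCPOBOP and 3 of 3 vehicle livers had an island. The Myc window, with 0 kb in every liver, could show no difference. Cover of the groups overlapped in the other 4 windows, and 3.84% of the 14337 autosomal 100 kb windows with islands in 2 or more livers had groups that did not overlap. None of the 4 differences passed the exact permutation test before adjustment (1.91% of those autosomal windows did), and each had p = 1 after Benjamini-Hochberg adjustment over all windows. With 35 splits of the livers the smallest unadjusted p was 0.0286, so a window could pass the adjustment only together with many others.

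**Figure D1:**
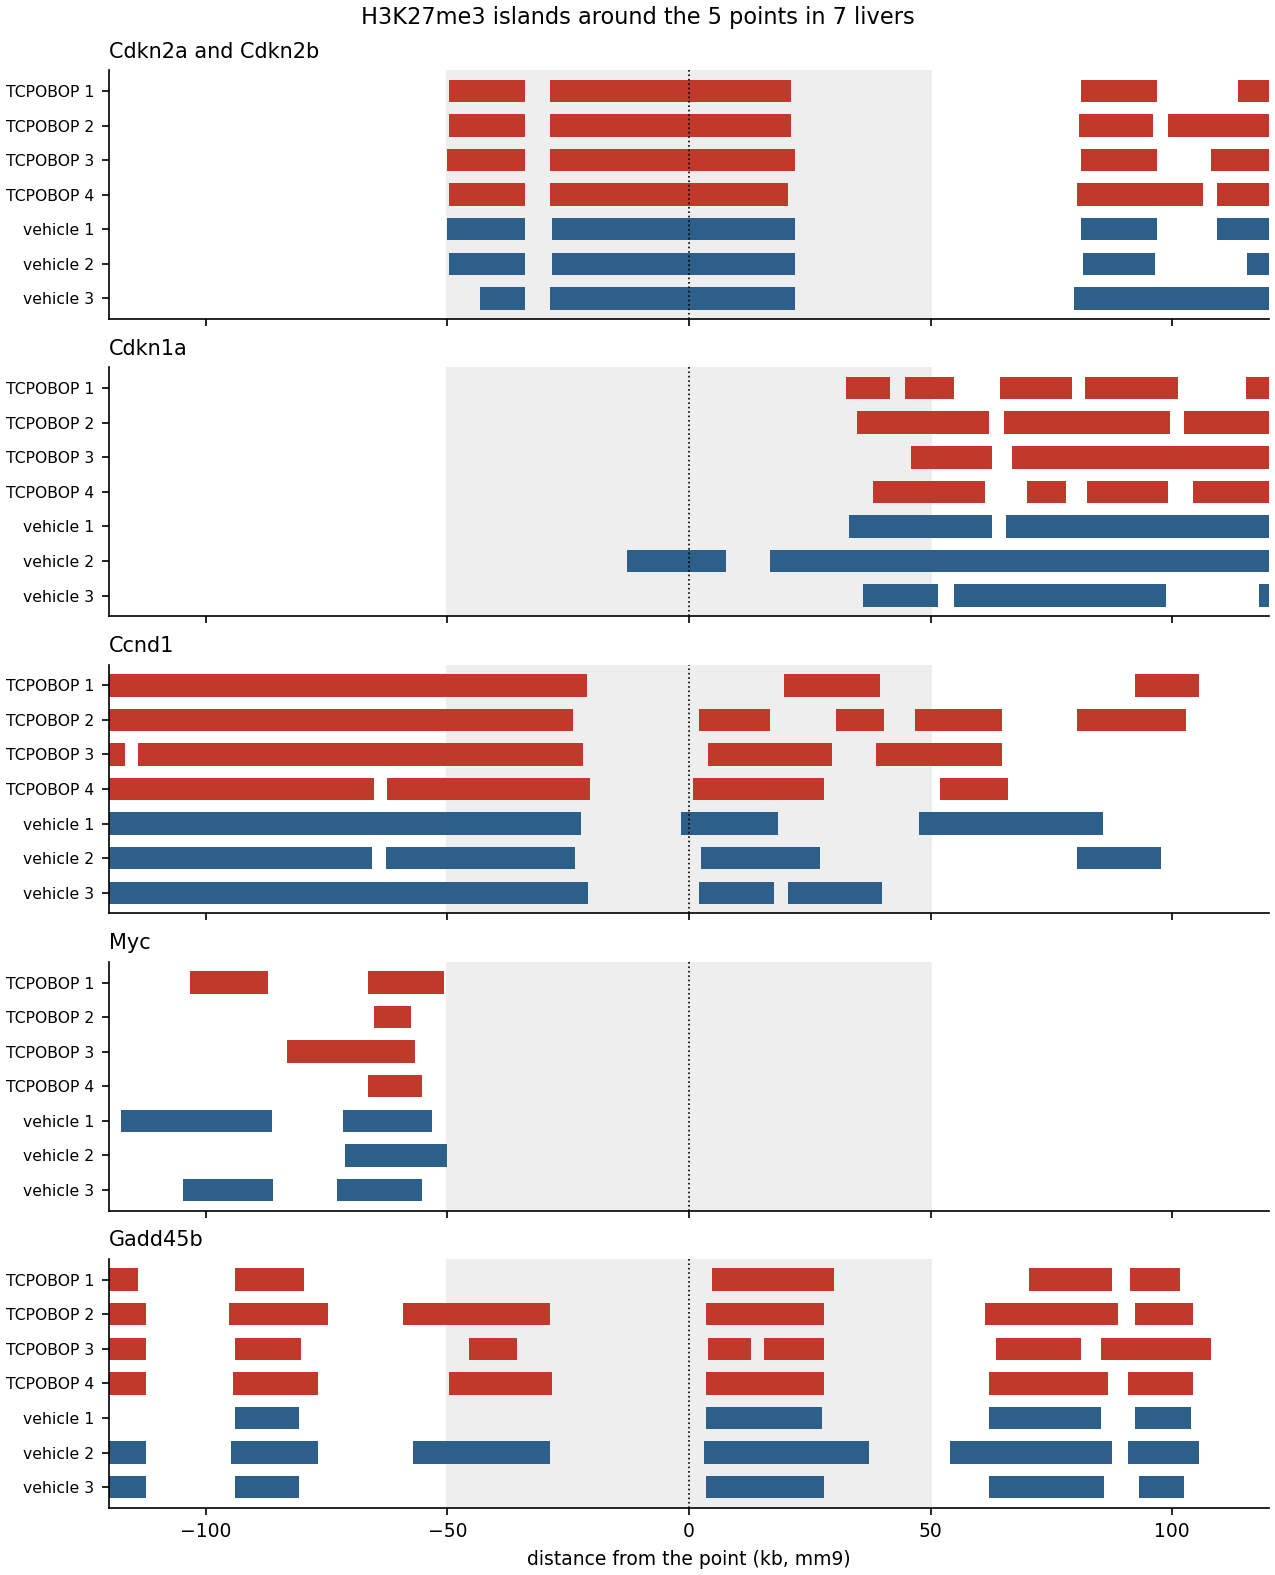
Islands of each liver (bars; 4 TCPOBOP livers in red above 3 vehicle livers in blue) against the distance from each point in kb, drawn to 120 kb on either side; grey marks the 100 kb window. The domain over the Cdkn2a and Cdkn2b point has nearly the same ends in 7 livers, the Myc window is empty, and vehicle replicate 2 alone has an island over the Cdkn1a point.

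Cdkn2a gives rise to both Ink4a, which blocks the cyclin D-dependent kinases, and Arf, which stabilises p53, and Cdkn2b encodes Ink4b, a close relative of Ink4a. This locus is a long-known Polycomb target. A single island lay over its point in all 7 livers, within chromosome 4 from 88911201 to 88962000. It was 50, 50, 50.8 and 49.2 kb wide in TCPOBOP replicates 1 to 4, against 50.4, 50.4 and 50.8 kb in vehicle replicates 1 to 3. The widths of the groups overlapped and spanned only 1.6 kb, or 4 SICER windows of 400 bp. In RefSeq's GRCm38.p6 annotation the 2 genes together span 36.6 kb. Gene positions in mm9 were not used here, so the island was placed only by the point.

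A second, narrower island lay before it in all 7 livers. Its score was at percentiles 61.4, 40.1, 45.9 and 41.2 of the liver's own list in TCPOBOP replicates 1 to 4. In vehicle replicates 1 to 3 the score was lower, at percentiles 11.8, 25.8 and 28.7. These percentiles were not tested between groups. In vehicle replicate 1 the narrower island was lost without the lowest 25% of islands by score, or with lists trimmed to equal total length. Those of vehicle replicates 2 and 3 lay only just above the 25% limit. The narrower island was 15.6, 15.6, 16.0 and 15.6 kb wide in TCPOBOP livers and 16.0, 15.6 and 9.2 kb wide in vehicle livers, vehicle replicate 3 having the narrowest. This island ended at -34.0 kb in every liver. The wide one began at -28.8 kb in all 4 TCPOBOP livers and at -28.4, -28.4 and -28.8 kb in vehicle livers, which left a stretch of 5.2 to 5.6 kb between them without an island. Ends that recur so closely were uncommon: of all autosomal islands, 1.25 to 1.71% per list had a left end, and 1.02 to 1.65% a right end, with a matching end within 1 SICER window in all 6 other lists. Of the 14 islands in this window, 7 had such a left end (the wide island of each liver) and 7 such a right end (the narrow one), against 0 of 40 islands for either end in the Cdkn1a, Ccnd1 and Gadd45b windows. These counts repeat 1 left end and 1 right end once per liver. The matching of ends was chosen as a measure after the ends had been seen and carries no test.

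Total cover of the Cdkn2a and Cdkn2b window was 65.6, 65.6, 66.8 and 64.8 kb in TCPOBOP livers, against 66.4, 66.0 and 60 kb in vehicle livers. Vehicle replicate 3 was lowest, and the other vehicle livers lay within the TCPOBOP range. Cover averaged 65.7 ± 0.825 kb (SD, n = 4) with TCPOBOP and 64.1 ± 3.59 kb (SD, n = 3) with vehicle, a difference of 1.57 kb (95% interval -1.6 to 6.8 kb, exact permutation p = 0.629). Without vehicle replicate 3 the difference was -0.5 kb, and without the lowest 25% of islands by score, or with lists trimmed to equal total length, it was 6.9 kb (65.7 kb with TCPOBOP and 58.8 kb with vehicle, exact permutation p = 0.114). The rise to 6.9 kb came from 1 island, the narrow one of vehicle replicate 1, which both settings dropped. Islands of all 7 livers shared 58.0 kb of the window, 33.2 kb had no island in any liver, and only 8.8 kb was under islands in 1 to 6 livers. The spread over livers, 6.8 kb, was at percentile 5.74 of the spreads of autosomal windows tested, whose median was 27.6 kb. The spreads at Ccnd1, Gadd45b and Cdkn1a were 16.0, 31.2 and 49.6 kb, at percentiles 22.0, 58.0 and 86.6, so Ccnd1 too was below the median.

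The island over the point was also dense. The score that SICER gave an island grows with its length and with the depth of the library, so it was divided by the number of 400 bp windows and by the median of that quantity in the same list. The result was 2.58, 2.75, 2.51 and 3.14 times the list's median in TCPOBOP livers, against 2.81, 3.19 and 3.94 times in vehicle livers. The groups overlapped, with vehicle replicate 3 highest. In every list the island was denser than at least 95.7% of islands, whereas the narrow island beside it had 0.896 to 1.77 times the median. These scores are the authors' own and depend on depth, so no test was made between lists.

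The promoters of this locus are shown because the domain lay over the point given for both genes. They are the 250 bases before each annotated start in RefSeq's GRCm38.p6 table, which is the C57BL/6J reference and not the CD-1 stock. Capitals mark the dinucleotide CG, which reads the same on both strands and is bound by proteins that can recruit Polycomb complexes.
Cdkn2a, start of Arf, chr4:89294620-89294869, minus strand: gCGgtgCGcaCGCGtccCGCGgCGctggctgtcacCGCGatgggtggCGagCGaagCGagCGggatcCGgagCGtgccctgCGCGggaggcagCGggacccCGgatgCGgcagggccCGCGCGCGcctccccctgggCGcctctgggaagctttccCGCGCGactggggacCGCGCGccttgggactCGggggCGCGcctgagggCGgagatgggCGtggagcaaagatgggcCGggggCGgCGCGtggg
Cdkn2a, start of Ink4a, chr4:89282193-89282442, minus strand: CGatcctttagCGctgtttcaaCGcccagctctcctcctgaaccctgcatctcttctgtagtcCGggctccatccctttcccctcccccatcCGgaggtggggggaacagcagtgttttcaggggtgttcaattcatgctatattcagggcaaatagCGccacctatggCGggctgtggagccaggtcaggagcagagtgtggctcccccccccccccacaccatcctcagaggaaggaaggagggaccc
Cdkn2b, chr4:89311033-89311282, minus strand: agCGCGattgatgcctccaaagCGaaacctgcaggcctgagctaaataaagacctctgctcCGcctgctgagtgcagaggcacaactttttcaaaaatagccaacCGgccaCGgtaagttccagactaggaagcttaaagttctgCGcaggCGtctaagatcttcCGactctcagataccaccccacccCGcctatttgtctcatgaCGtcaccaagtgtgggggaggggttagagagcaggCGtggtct
The Arf promoter held 40 CG, a number reached by 1.31% of the 32851 promoters in the table. The Ink4a promoter held 7 and the Cdkn2b promoter 12, reached by 46.3% and 33.5% of promoters. At least 1 CG was present in 92.1% of all promoters and the median was 6. Promoters were found for 4 of the 6 genes. Those of Cdkn1a held 2 and 19 CG at its 2 starts and that of Gadd45b held 22. Gadd45b had no island over its point, but one began 3.2 to 4.8 kb after it in each liver. Whether that island lay on the gene is unknown without mm9 gene positions, and a link between CG and islands was not tested.

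Cdkn1a encodes Cip1, the inhibitor that p53 induces after damage. Its point was free of islands in each of the 4 TCPOBOP livers and in 2 of 3 given vehicle. Vehicle replicate 2 alone had an island there, on chromosome 17 from 29217201 to 29237600, 20.4 kb wide. That island was weak, with a score per window of 0.547 times its list's median. In the other livers the nearest island lay after the point, at 32.4, 34.8, 46.0 and 38.0 kb in TCPOBOP livers and at 33.2 and 36 kb in vehicle replicates 1 and 3. RefSeq's gene order in GRCm38.p6 places Rab44 and Cpne5 on that side.

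Cover of the Cdkn1a window was 14.4, 15.2, 4.0 and 12 kb in TCPOBOP livers, against 16.8, 53.6 and 14 kb in vehicle livers. TCPOBOP replicate 3 was lowest and vehicle replicate 2 far above all others. The mean was 11.4 ± 5.12 kb (SD, n = 4) with TCPOBOP and 28.1 ± 22.1 kb (SD, n = 3) with vehicle, a difference of -16.7 kb, not past the threshold (95% interval -49.6 to 1.2 kb, exact permutation p = 0.0857). Within 100 kb of the point it was -22.8 kb, and with lists trimmed to equal total length -20.0 kb (exact permutation p = 0.0571 for each). Vehicle replicate 2 set most of the -16.7 kb: without that liver the difference was -4.0 kb (exact permutation p = 0.467). Beyond the weak island, this liver had a domain of 138.8 kb that began at 16.8 kb, with 2.26 times its list's median score per window. The other 6 livers had islands of 9.2 to 29.6 kb at that end of the window, with 0.777 to 1.35 times the median. They also had islands farther out, and the merged region from 29246801 to 29386800 was 71.9 ± 7.06% covered (SD, n = 4) with TCPOBOP and 82.0 ± 15.2% (SD, n = 3) with vehicle, a difference of -10.1% that was -1.5% without vehicle replicate 2. Vehicle replicate 2 had the second fewest islands of the 7 lists and shared the least genome under islands, 537 Mb, with TCPOBOP replicate 2; the part of these in the result was not tested.

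**Figure D2:**
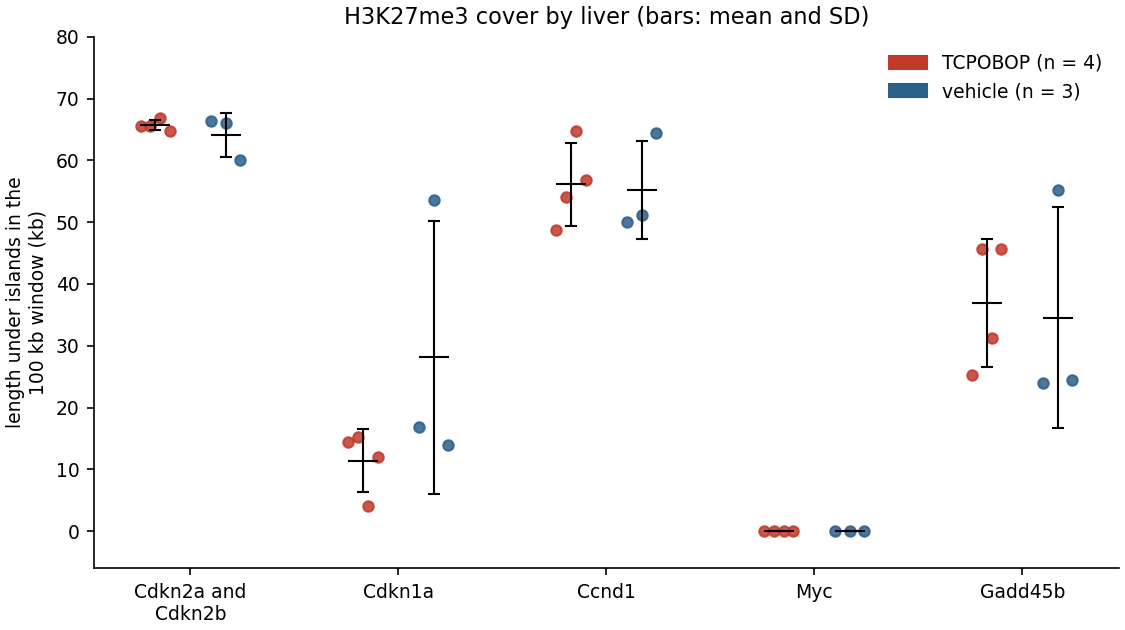
Length under islands in kb within each 100 kb window, with 1 point per liver (TCPOBOP red, n = 4; vehicle blue, n = 3) and black bars for mean and SD. Groups overlap in every window, and vehicle replicate 2 lies at 53.6 kb in the Cdkn1a window and 55.2 kb in the Gadd45b window.

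Gadd45b had an island just after its point in all 7 livers. It began at 4.8, 3.6, 4.0 and 3.6 kb in TCPOBOP livers and at 3.6, 3.2 and 3.6 kb in vehicle livers, and reached 28.0 kb in 4 of them, 27.6 kb in vehicle replicate 1, 30 kb in TCPOBOP replicate 1 and 37.2 kb in vehicle replicate 2. In TCPOBOP replicate 3 it was split into islands of 8.8 and 12.4 kb. Gng7 is the next protein-coding gene on that side in RefSeq's order. The densest island of the window had 1.49, 2.10, 2.00 and 1.73 times its list's median score per window in TCPOBOP livers, against 1.87, 2.62 and 1.77 times in vehicle livers. Values of the groups overlapped, and vehicle replicate 2 was again highest in this ratio. By percentile within its own list TCPOBOP replicate 3 was highest, at 94.7, against 94.1 for vehicle replicate 2.

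Livers differed before the Gadd45b point, toward Lmnb2 and Timm13. An island lay there in 3 of 4 TCPOBOP livers and in 1 of 3 vehicle livers. It covered 0, 21.2, 10.0 and 21.2 kb of the window in TCPOBOP livers and 0, 21.2 and 0 kb in vehicle livers. Presence was thus mixed within each group. Cover of the whole window was 25.2, 45.6, 31.2 and 45.6 kb in TCPOBOP livers, against 24, 55.2 and 24.4 kb in vehicle livers, and vehicle livers held both the highest and the lowest values. The mean was 36.9 ± 10.3 kb (SD, n = 4) with TCPOBOP and 34.5 ± 17.9 kb (SD, n = 3) with vehicle (difference 2.37 kb, 95% interval -30 to 22.6 kb, exact permutation p = 0.857). Without vehicle replicate 2 the difference was 12.7 kb (exact permutation p = 0.133). It was -2.9 kb without vehicle replicate 1, -2.7 kb without vehicle replicate 3 and -0.533 kb without TCPOBOP replicate 2 or 4. Single livers thus decided its size and its direction.

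Ccnd1 encodes cyclin D1, which activates the kinases that Ink4a and Ink4b block. Its point lay next to a wide domain. The last island before the point ended at -21.2, -24, -22.0 and -20.4 kb in TCPOBOP livers and at -22.4, -23.6 and -20.8 kb in vehicle livers, so the ends fell within 3.6 kb of each other and the groups overlapped. The other end was far less fixed. This island was 184.4, 181.6, 92.0 and 42.0 kb wide in TCPOBOP livers, against 326.8, 39.2 and 152.4 kb in vehicle livers. In each liver another island followed it, farther from the point, across a gap of 2.8 kb in 5 livers, 3.2 kb in TCPOBOP replicate 1 and 6.8 kb in vehicle replicate 1. In RefSeq's order LTO1, Fgf15, Fgf4 and Fgf3 lie on this side, and Fgf15, Fgf4 and Fgf3 encode fibroblast growth factors. Over the merged region from 151770401 to 152099600, 329.2 kb long, cover was 95.7 ± 1.16% (SD, n = 4) with TCPOBOP and 97.3 ± 1.84% (SD, n = 3) with vehicle. The last island before the point had 1.42 to 2.80 times the list's median score per window over the 7 livers.

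After the Ccnd1 point islands were shorter, but their cover of that side averaged 28.0 kb with TCPOBOP and 26.9 kb with vehicle, close to the 28.1 and 28.3 kb before the point. The nearest began at 19.6, 2.0, 4.0 and 0.8 kb in TCPOBOP livers and at 2.4 and 2.0 kb in vehicle replicates 2 and 3, while in vehicle replicate 1 it began at -1.6 kb and ran over the point. TCPOBOP replicate 1 had the largest distance. The 12 islands on this side were 10.0 to 38.0 kb wide and had 0.548 to 1.60 times the median score per window. Cover of the whole window was 48.8, 54.0, 64.8 and 56.8 kb in TCPOBOP livers, against 50, 51.2 and 64.4 kb in vehicle livers. The groups overlapped over nearly their whole range. Mean cover was 56.1 ± 6.68 kb (SD, n = 4) with TCPOBOP and 55.2 ± 7.99 kb (SD, n = 3) with vehicle, a difference of 0.9 kb (95% interval -16.1 to 21.2 kb, exact permutation p = 0.886). Within the window 26.0 kb was under islands in all 7 livers and 55.2 kb in 1 to 6 livers.

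**Figure D3:**
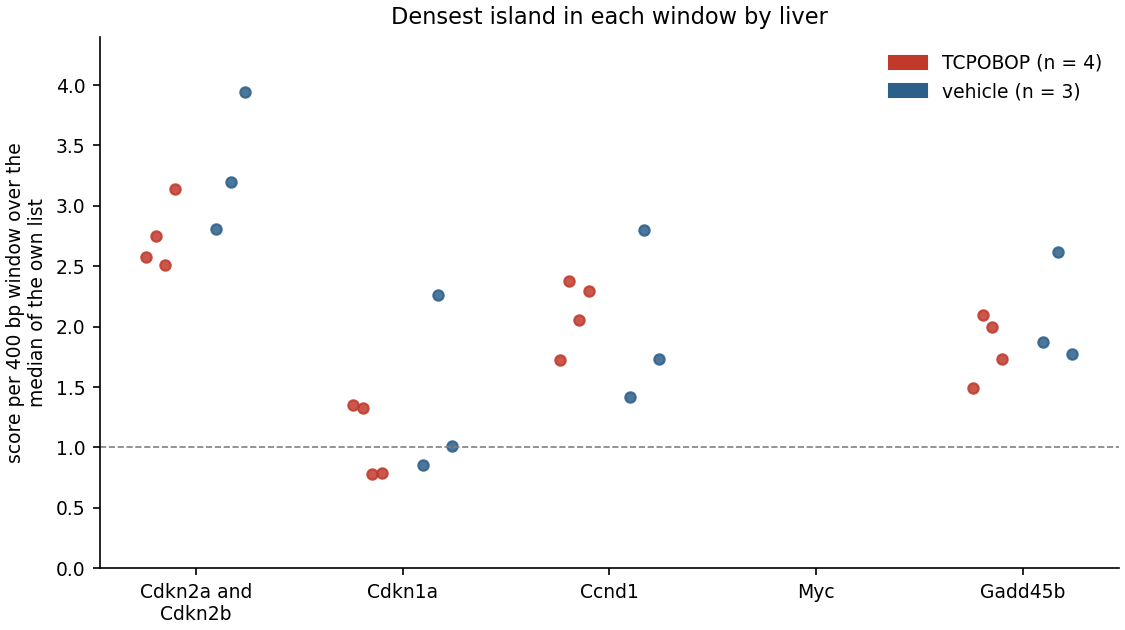
Score per 400 bp window of the densest island in each window, divided by the median over the islands of the same list (dashed line at 1), with 1 point per liver (TCPOBOP red, n = 4; vehicle blue, n = 3). The Cdkn2a and Cdkn2b island lies above 2.5 in all 7 livers, Cdkn1a spans 0.777 to 2.26, and Myc has no island to plot.

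The gene Myc, whose transcription factor is induced early in liver regeneration, stood in an interval free of islands. From chromosome 15 position 61770001 to 61870000 an island was present in 0 of 4 TCPOBOP livers and 0 of 3 vehicle livers. The nearest one lay before the point in each liver, at a distance of 50.8, 57.6, 56.8 and 55.2 kb in TCPOBOP livers and 53.2, 50 and 55.2 kb in vehicle livers. Distances of the groups overlapped. The island of vehicle replicate 2 ended exactly on the limit of the window and was not counted; of the islands just outside, it and that of TCPOBOP replicate 1 were closest. These nearest islands were 7.6 to 26.4 kb wide. After the point the first 120 kb held no island in any liver, and Pvt1, a noncoding RNA gene, is Myc's neighbour there in RefSeq's order. An empty window was common: 36% of the 24678 autosomal windows had no island in any liver, and 37% had one in all 7. These windows ran from the first base of each autosome, and unsequenced or unmappable stretches were not left out. The 36%, and the percentiles of mean cover given below, may thus be raised by windows where no island could be called.

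Set among all autosomal 100 kb windows, mean cover over the 7 livers was 65 kb for Cdkn2a and Cdkn2b, at percentile 86.6, 55.7 kb for Ccnd1, at percentile 82.7, 35.9 kb for Gadd45b, at percentile 72.4, and 18.6 kb for Cdkn1a, at percentile 59.8. Within single livers, cover was higher at Cdkn2a and Cdkn2b than at Ccnd1 in 6 of 7, at Ccnd1 than at Gadd45b in 6 of 7, and at Gadd45b than at Cdkn1a in 7 of 7. No base of the 5 windows was under islands in all livers of 1 group and in 0 of the other; over the autosomes, 0.25% of the length under any island was covered in 4 TCPOBOP and 0 vehicle livers and 0.209% in 0 TCPOBOP and 3 vehicle livers. The autosomal windows with the most similar cover, by the mean absolute difference over 7 livers, lay on chromosome 7 from 148900001 to 149000000 for Cdkn2a and Cdkn2b (0.571 kb), chromosome 7 from 105300001 to 105400000 for Cdkn1a (4.63 kb), chromosomes 2 from 121100001 to 121200000 and 7 from 136100001 to 136200000 for Ccnd1 (3.31 kb each, a tie) and chromosome 8 from 124500001 to 124600000 for Gadd45b (3.2 kb).

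**Figure D4:**
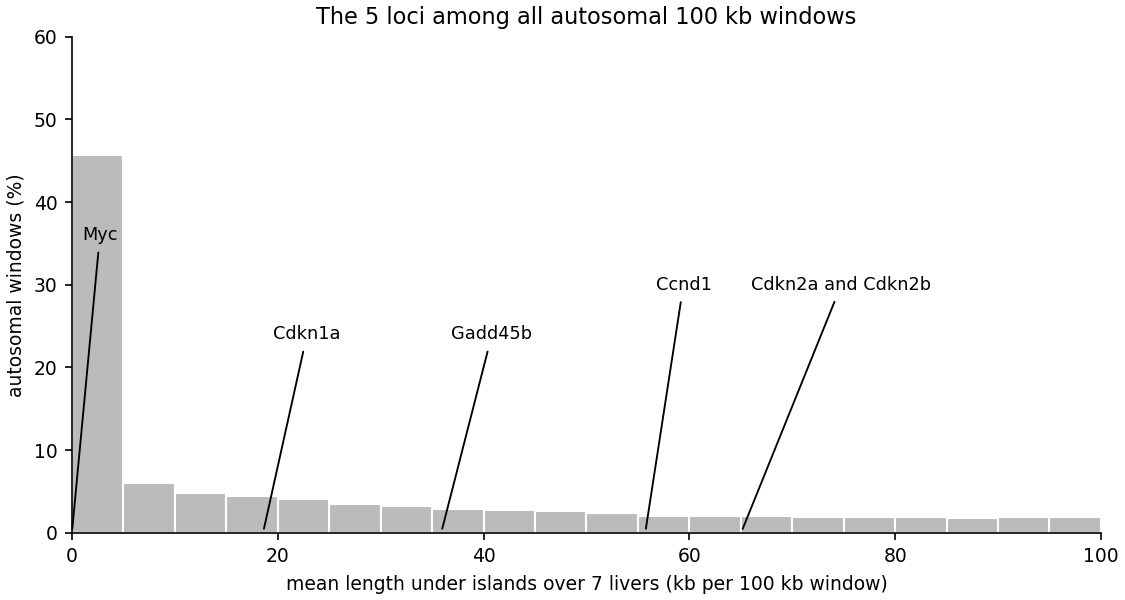
Share of autosomal 100 kb windows (grey bars, in percent) by mean length under islands over 7 livers in kb, with lines to the mean of each of the 5 loci on the x axis. Myc lies at 0, and Ccnd1 (55.7 kb) and Cdkn2a and Cdkn2b (65 kb) lie in the flat upper part of the distribution.

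Merged over the 7 lists, the islands of the 5 windows fell in 8 regions, of which 7 were tested because 2 or more livers had an island there. The fraction of a region under islands differed by -10.8 to 19.3% of its length between TCPOBOP and vehicle livers, with standard errors of 2.72 to 30.5%, and the adjusted p was 1 for each (limma over 13988 regions). Single livers decided both ends of that range. The 19.3% was that of the region before Gadd45b, which 3 TCPOBOP livers and 1 vehicle liver had: it was 3.03% without TCPOBOP replicate 2, 3.90% without vehicle replicate 1 or 3, and 50% without vehicle replicate 2. The -10.8% was that of the region after Gadd45b, and was -1.18% without vehicle replicate 2. Over the whole genome limma called 0% of regions, with 3.87% at an unadjusted p under 0.05; without trend and robust variance it called 13, none of them in these windows. In data simulated from the covers of these livers, TCPOBOP cover was set to 0 in regions drawn at random from those tested. This also removed the spread among TCPOBOP livers in those regions. The limma fit did not recover these losses, so its 0 calls do not show that regions were alike. The draw took in regions with little vehicle cover to lose, so it does not tell how limma would treat an evenly covered region. The smallest standard error was that of the domain over the Cdkn2a and Cdkn2b point, whose difference was -1.05% of its length (SE 2.72%), with 98.4 ± 1.29% covered with TCPOBOP (SD, n = 4) and 99.5 ± 0.455% with vehicle (SD, n = 3).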

How the data were processed

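Per the submitters' processing notes, the authors' tools were Bowtie2 2.3.2 and SICER 1.1, with mm9 as the genome build. The deposited files held 1 list of islands per liver, with a score for each island that the authors' peak caller gave. Settings carried in the list names were 400 bp for the window, 2400 bp for the gap and 100 for the E-value. Input control, filters and treatment of duplicates were not given in the sources used here. Starts were counted from 0 in the lists and are given here from 1. The members and lists were chosen with earlier results of these data known. The named genes were the 6 members, with neighbours by gene order in RefSeq GRCm38.p6 and, for each window with islands, the most similar autosomal windows. Other cell cycle genes and liver markers were not placed, since gene positions in mm9 were not used here.

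Cover of a window was compared with a two-sided exact permutation test of the means, its 95% interval found by inverting the test, and adjusted over the autosomal windows with islands in at least 2 livers. Overlapping or touching islands of the 7 lists were joined into regions, and the covered fraction of each region was fitted with limma 3.58.1 (trend, robust variance; R 4.3.3), threshold 0.05. Both tests were tested on simulated data. The permutation routine gave the known p, and limma recovered known differences in normal noise of small spread. It did not recover losses made by setting TCPOBOP cover to 0 in regions drawn at random from these lists. Regions with little vehicle cover to lose were among them. The limma simulations differed in more than the spread, so the reason was not tested. Python 3.11.15 and NumPy 2.4.6 were used. Alternatives were other window sizes, fewer islands, lists of equal length, livers left out, a replicate block and other limma settings.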

Additional observations from a re-analysis of the deposited data

Results flagged for a closer look

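For 2 of the 11 measures tested over TCPOBOP livers, 1 value stood apart from the remaining 3. For continuous values this happens by chance in about 1 of 20 measures; that rate does not hold for the island count, where 3 equal values make any other value stand apart. At Ccnd1, TCPOBOP replicate 1 had its nearest island 19.6 kb from the point, against 2.0, 4.0 and 0.8 kb in TCPOBOP replicates 2 to 4 and 0, 2.4 and 2.0 kb in vehicle replicates 1 to 3. At Cdkn1a, TCPOBOP replicate 1 had 2 islands in the window, against 1 in each of TCPOBOP replicates 2 to 4 and 1, 2 and 1 in vehicle replicates 1 to 3. This library also had the most islands of the 7, 20550, with the lowest median width, 20.8 kb; their part in these values was not tested.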

How the results depend on the processing

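Of 48 alternatives at the 4 windows with islands, 33 kept the direction of the difference in cover and 15 changed it. At Cdkn1a the difference was -22.8 kb within 100 kb of the point and -20.0 kb with lists trimmed to equal total length. Both gave the lowest exact permutation p, 0.0571, of the 14 alternatives that could pass the test. The other 34 could not: the smallest p is 0.1 without a TCPOBOP liver, 0.0667 without a vehicle liver and 0.25 with the replicate block, and within 25 kb ties between livers raise it to 0.429 at Cdkn1a and 0.114 at Gadd45b. The direction changed for Cdkn2a and Cdkn2b, Ccnd1 and Gadd45b, whose differences were small, and the cause was not tested. Within 25 kb of the point they were -0.8, -4.22 and -1.23 kb. With lists trimmed to equal total length the difference was -0.233 kb at Ccnd1 and -0.133 kb at Gadd45b, and without the lowest 25% of islands by score it was -0.133 kb at Gadd45b. At Cdkn2a and Cdkn2b both of these settings gave 6.9 kb, since both dropped the narrow island of vehicle replicate 1. Leaving out 1 liver gave -0.5 to 2.7 kb at Cdkn2a and Cdkn2b, -2.0 to 5.5 kb at Ccnd1, -2.9 to 12.7 kb at Gadd45b and -23.8 to -4.0 kb at Cdkn1a, whose direction held in all 12 of its alternatives. Within 100 kb the Myc window had islands in 7 livers and a difference of -9.87 kb (exact permutation p = 0.286), and counting the island that ends on the limit gave 1 liver at Myc; these counts, and 1 liver with an island within 25 kb of Cdkn1a, were added after seeing the data. The 3 remaining changed counts, of 26, were the 6 livers at Cdkn1a given in the report. Limma called 13 regions without trend and robust variance and 1 with regions of a single liver included. The region after the Ccnd1 point, from 152118401, differed by 2.55% of its length. It differed by -14.8% both without the lowest 25% of islands and with lists of equal length, and by -2.86 to 8.58% when 1 liver was left out. The region before the Cdkn2a and Cdkn2b point, from 88890001, differed by 13.1%, and by -0.625 to 20.6% with 1 liver left out. Without the lowest 25% of islands, or with lists of equal length, it differed by 46.5%. Both settings dropped the island of vehicle replicate 1 there, so 1 island made that rise.

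The labels number TCPOBOP livers 1 to 4 and vehicle livers 1 to 3. Deviations from the group means over 13988 regions had correlations of 0.0269, 0.278 and 0.0693 for the same-numbered livers. The 0.278 of replicate 2 was the highest of all pairs. TCPOBOP replicates 1 and 3 correlated best with another number, at 0.106 with vehicle replicate 3 and 0.0812 with vehicle replicate 1. The labels state no pairing, and what the livers numbered 2 had in common was not tested. With a replicate block limma called 0 regions, with 490 at an unadjusted p under 0.05, and the Gadd45b difference was -0.533 kb. Depth is unknown and limits what absence of an island shows.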
